A study of Rattus norvegicus with 16 samples.

Results

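The immediate early genes Fos, Jun, Egr1 and Myc were followed in kidneys of rat pups after removal of the left kidney or a sham operation. They were taken from the deposited table by their Ensembl identifiers, ENSRNOG00000008015 (Fos), ENSRNOG00000026293 (Jun), ENSRNOG00000019422 (Egr1) and ENSRNOG00000004500 (Myc). All 4 were found among the 26689 rows, and all 4 were among the 14845 genes whose mean value was high enough to be tested. Total kidney RNA of male Wistar pups was sequenced. The pups had left uninephrectomy (UNX, removal of 1 kidney) or a sham operation when they were 1 or 14 days into life, and their kidney tissue was collected after a further 3 days. No earlier time was sampled, so a brief change soon after surgery was not measured. The protocol names isoflurane anaesthesia for UNX. Crossing the kind of surgery with its day gave 4 groups of 4 libraries each, called sham day 1, UNX day 1, sham day 14 and UNX day 14. No unoperated pups were in the comparison, so both arms share surgery, and the labels do not say which kidney of a sham pup was used. Nor do they tie each library to a pup of its own, and the p-values therefore reflect only how much these libraries varied, which may be technical. Age and any batch that followed the surgery day cannot be told apart.

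Values are regularised-log (rlog) levels, a log2 scale on which a step of 1 is a doubling and on which differences of weakly expressed genes are shrunken. They are not corrected for transcript length, so levels were compared between libraries and not between genes. The table gives no read totals, which leaves the depth of each library, and with it the counting error, unknown. The table's identifiers are not paired with symbols and the reference table matched 0 of them. The labelled tissue could therefore not be checked against kidney markers, and other members of the AP-1, EGR and MYC families were not analysed here. No pair of libraries held identical values. On the second principal component of all tested genes, sham day 1 library 3 (14.5) and sham day 14 library 4 (12.9) stood apart from the other 14, at −5.95 to 2.58.

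Immediate early genes are transcribed within minutes of a stimulus, without new protein synthesis, and most of their transcripts decay quickly. Fos and Jun encode leucine zipper proteins that pair to form the transcription factor AP-1. Egr1 encodes a zinc finger transcription factor induced through serum response factor and its partner proteins. Myc encodes a transcription factor that drives ribosome production, metabolism and cell cycle entry, and it is active in the proliferating progenitors of the developing kidney. In the kidney these genes are known to respond to growth factors, ischaemia and loss of renal mass, and in many tissues also to handling at collection.

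The promoter of Egr1 is shown because it was the only one of the 4 that was available, and no link to the expression values was tested. RefSeq's promoter table (build GRCr8) held 1 of the 4 genes, Egr1, and the 250 bases before its transcription start are at chr18:26736828-26737077 on the + strand. Capitals mark the 2 matches to the CArG box, the element bound by serum response factor.

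Egr1: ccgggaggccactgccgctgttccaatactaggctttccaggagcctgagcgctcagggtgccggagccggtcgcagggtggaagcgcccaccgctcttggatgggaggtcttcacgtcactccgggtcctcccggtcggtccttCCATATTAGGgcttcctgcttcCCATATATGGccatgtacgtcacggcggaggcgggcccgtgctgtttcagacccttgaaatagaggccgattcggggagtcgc

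The CArG boxes read CCATATTAGG, from −105 to −96 relative to the start, and CCATATATGG, from −83 to −74. At least 1 CArG box was present in 1.5% of the 33469 promoter windows of the same length, searched on both strands, and at least 2 in 0.0209%. The core of the cyclic AMP response element, TGACGT, was matched on the opposite strand from −136 to −131 and from −67 to −62. This core was found in 6.95% of the windows, and at least 2 copies in 1.89%. The AP-1 site TGANTCA, bound by Fos and Jun dimers, was found in 6.34% of the windows and had no match in that of Egr1. These are matches of letters and not measured binding sites.

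Fos, the AP-1 subunit that pairs with Jun, had rlog values of 5.81, 6.06, 6.20 and 6.04 in sham day 1 libraries 1 to 4. After UNX on day 1 it stood at 5.87, 6.15, 5.91 and 6.23 in libraries 1 to 4. In sham day 14 libraries 1 to 4 it stood at 6.15, 7.02, 5.83 and 5.77. After UNX on day 14 the values were 5.84, 5.91, 6.07 and 5.998. The value of 7.02 in sham day 14 library 2 was the highest of the 16, and the other 15 libraries of all groups overlapped within 5.77 to 6.23.

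Jun, the AP-1 subunit that can also pair with itself, had rlog values of 9.17, 9.30, 9.64 and 9.54 in sham day 1 libraries 1 to 4. The values after UNX on day 1 were 9.26, 9.32, 9.26 and 9.56. Sham day 14 libraries 1 to 4 stood at 9.37, 9.84, 9.34 and 9.25, and UNX day 14 libraries 1 to 4 at 9.11, 9.05, 9.16 and 9.22. The 4 UNX day 14 values thus lay under all 4 sham day 14 values, and also under all 4 UNX day 1 values, while the 2 day 1 groups overlapped.

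Egr1, the zinc finger factor, had rlog values of 10.86, 10.98, 10.95 and 10.82 in sham day 1 libraries 1 to 4, the narrowest of its groups. After UNX on day 1 it stood at 10.42, 10.97, 10.91 and 10.59, so libraries 1 and 4 were below every sham day 1 library and libraries 2 and 3 were level with them. Sham day 14 libraries 1 to 4 stood at 10.66, 11.73, 10.62 and 10.38. After UNX on day 14 the values were 10.22, 10.24, 10.46 and 10.48. UNX and sham overlapped at day 14 only through sham library 4, the lowest of the sham values, and library 2 was again the highest of all 16.

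Myc, the growth regulator, had rlog values of 9.84, 10.08, 10.09 and 9.89 in sham day 1 libraries 1 to 4, and of 10.03, 9.96, 10.05 and 10.21 after UNX on day 1. In sham day 14 libraries 1 to 4 it stood at 9.39, 9.52, 9.41 and 9.10, and after UNX on day 14 at 9.21, 9.27, 9.29 and 9.37. Every day 14 value lay under every day 1 value, whichever the surgery, and UNX and sham overlapped at both ages.

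**Figure D1:**
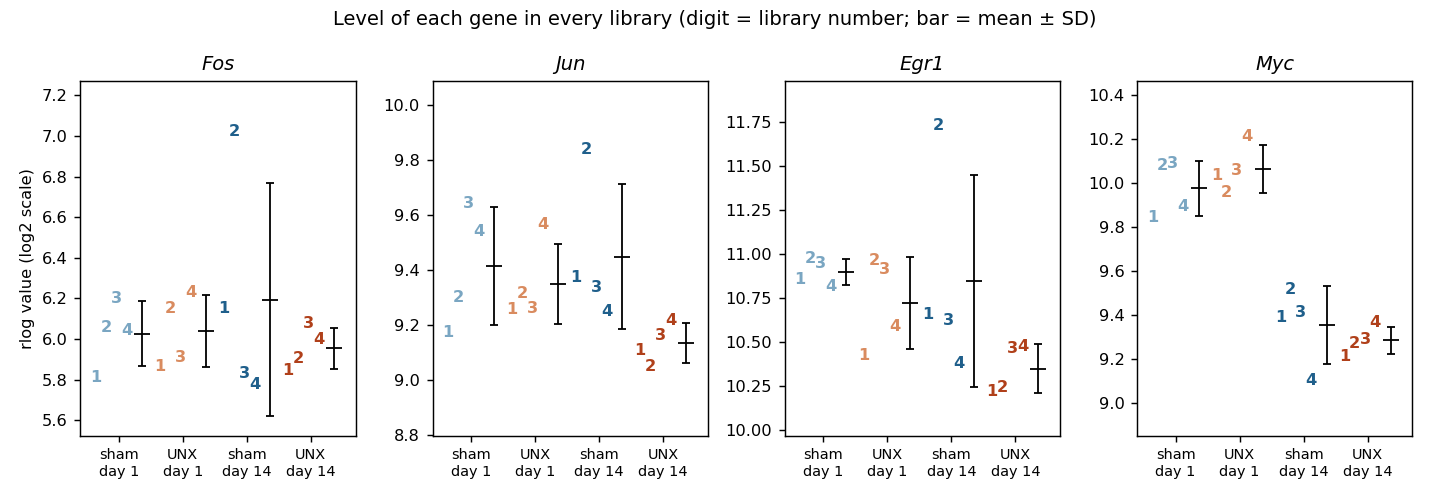
rlog value (y axis, log2 scale, a separate range for each gene) of Fos, Jun, Egr1 and Myc in the 4 groups (x axis), with each digit the library number and the bar at the right of each group its mean ± SD (n = 4). Sham day 14 library 2 stands above all other libraries for Fos (7.02), Jun (9.84) and Egr1 (11.73), and Myc separates the ages.

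Age was the comparison in which Myc changed. Its level fell from 9.98 ± 0.12 in sham day 1 kidneys to 9.36 ± 0.18 in sham day 14 kidneys (SD, n = 4 each), a log2 difference of −0.62 (SE 0.078, 95% interval −0.78 to −0.46). This is a change in level of −34.9% (95% interval −41.9% to −27.2%; limma adjusted p = 3.15e-06), and all 4 older libraries lay under all 4 younger ones. In UNX kidneys it fell from 10.06 ± 0.11 to 9.29 ± 0.063, a difference of −0.78 (SE 0.078, 95% interval −0.94 to −0.62; limma adjusted p = 1.66e-07). In a bulk sample, fewer Myc-expressing cells and less Myc RNA per cell cannot be told apart. Of the 4 genes, 1 passed in the sham comparison, where 45.1% of all tested genes passed (22.5% lower at the older age), and 1 in the UNX comparison, where 45.9% did (22.9% lower). The fall of Myc stood at position 747 by size among the 14845 tested genes in sham kidneys, and at position 428 in UNX kidneys. The ages were fully separated in value for 1 of the 4 genes, Myc, among sham libraries, beside 36.7% of all tested genes. Among UNX libraries they were separated for 2, Myc and Jun, beside 45.7%.

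Fos, Jun and Egr1 did not pass in either age comparison. Between the sham groups Fos differed by 0.17 (95% interval −0.22 to 0.55; limma adjusted p = 0.488), from 6.03 ± 0.16 to 6.19 ± 0.58. Jun differed by 0.035 (95% interval −0.20 to 0.27; limma adjusted p = 0.825), from 9.41 ± 0.21 to 9.45 ± 0.26. Egr1 differed by −0.052 (95% interval −0.46 to 0.35; limma adjusted p = 0.852), from 10.90 ± 0.075 to 10.85 ± 0.60. The SD of Egr1 in sham day 14 kidneys was the largest of its 4 groups. Without sham day 14 library 2, Egr1 was lower at the older age by −0.35 (95% interval −0.57 to −0.12) and passed (limma adjusted p = 0.0151). The number of the 4 genes past the threshold then became 2, where 41.9% of all tested genes passed in the same fit. Of 19 alternatives this was the only 1 in which Egr1 passed. In 5 of the 19 its difference was positive, as at 0.11 without sham day 14 library 4, so its sign was not stable. With sham day 14 library 2 left out, Fos stood at −0.11 (limma adjusted p = 0.464) and Jun at −0.094 (limma adjusted p = 0.452).

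The age comparison in UNX kidneys does not contain that library, although the fit of all 16 libraries used it for the common spread. There Egr1 differed by −0.37, from 10.72 ± 0.26 to 10.35 ± 0.14 (95% interval −0.78 to 0.031; limma adjusted p = 0.124). Jun differed by −0.22, from 9.35 ± 0.15 to 9.14 ± 0.073 (95% interval −0.45 to 0.018; limma adjusted p = 0.124). Fitted on the 8 UNX libraries alone, both passed, Egr1 with a limma adjusted p of 0.0071 and Jun with 0.0138, at the same differences, and 3 of the 4 genes were then past the threshold, as were 49.7% of all tested genes in that fit. Fos differed by −0.082 (limma adjusted p = 0.746) and did not pass in that fit either (limma adjusted p = 0.465). Whether the age difference itself differed between UNX and sham kidneys is the same test as whether the effect of UNX differed between the ages, given below.

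After UNX on day 1, none of the 4 genes passed the test (limma), and none had an unadjusted p under 0.05, as 7.15% of all tested genes did. Of all tested genes 0.00674% passed. The UNX and sham values overlapped for each of the 4, as against 4.51% of all tested genes without overlap. The UNX minus sham difference was 0.011 for Fos (95% interval −0.38 to 0.40; limma adjusted p = 0.998), between means of 6.04 ± 0.18 and 6.03 ± 0.16. It was −0.064 for Jun (95% interval −0.30 to 0.17; adjusted p = 0.950 in limma), −0.18 for Egr1 (95% interval −0.58 to 0.23; adjusted p = 0.903) and 0.088 for Myc (95% interval −0.075 to 0.25; adjusted p = 0.864). Read as changes in level, these intervals run from −22.9% to 31.7% for Fos and from −5.04% to 18.9% for Myc, whose interval was the narrowest of the 4. The size of the Egr1 difference stood at position 624 of 14845, and those of Myc, Jun and Fos at 3596, 5601 and 12913.

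After UNX on day 14 all 4 means were lower than in sham kidneys, as were those of 50.1% of all tested genes. Again 0 of the 4 passed (limma), against 0.0539% of all tested genes. Egr1 had a mean of 10.35 ± 0.14 after UNX and 10.85 ± 0.60 after sham surgery, a difference of −0.50 (SE 0.19, 95% interval −0.90 to −0.093; limma unadjusted p = 0.0186, adjusted p = 0.2497). By size this was position 13 of the 14845 tested genes. Jun had means of 9.14 ± 0.073 and 9.45 ± 0.26, a difference of −0.31 (SE 0.11, 95% interval −0.55 to −0.081; limma unadjusted p = 0.0110, adjusted p = 0.214). Fos had means of 5.96 ± 0.10 and 6.19 ± 0.58 and differed by −0.24 (95% interval −0.63 to 0.15; limma adjusted p = 0.604), and Myc by −0.070 (95% interval −0.23 to 0.093; limma adjusted p = 0.741). At an unadjusted p under 0.05 there were 2 of the 4 genes, Egr1 and Jun, where 14.4% of all tested genes stood. UNX and sham libraries were fully separated in value for 1 of the 4, Jun, beside 6.97% of all tested genes. The median difference of the 4 was −0.28, beside −0.00030 over all tested genes, where rises and falls cancel. Regardless of sign, the median size was 0.28 for the 4 and 0.059 over all tested genes. These figures for the 4 genes include sham day 14 library 2, the highest of all 16 libraries for Fos, Jun and Egr1. Without it the difference of Fos was positive (0.0365). Neither Egr1 (limma unadjusted p = 0.0790) nor Jun (limma unadjusted p = 0.0641) then had an unadjusted p under 0.05.

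The day 14 differences of Fos and Egr1 rested in large part on sham day 14 library 2, and that of Jun did so less. Without that library the difference of Egr1 was −0.20 (95% interval −0.43 to 0.026; limma adjusted p = 0.413) and that of Jun −0.19 (95% interval −0.38 to 0.012; limma adjusted p = 0.380). The remaining sham day 14 values of Jun, 9.25 to 9.37, still lay above its highest UNX day 14 value, 9.22. Fos turned to 0.036 (95% interval −0.20 to 0.27; limma adjusted p = 0.925), and Myc stood at −0.015 (limma adjusted p = 0.957). Leaving out sham day 14 library 4, the lowest of its group for each of the 4 genes, moved the differences the other way. They were then −0.65 for Egr1 (limma adjusted p = 0.139), −0.38 for Jun (limma adjusted p = 0.152), −0.38 for Fos and −0.15 for Myc. Over all tested genes library 4 stood at 12.9 on the second principal component, and library 2 at 0.14. None of the 4 passed when any 1 of the 8 day 14 libraries was left out, with limma adjusted p of at least 0.105 for Jun, 0.109 for Egr1, 0.254 for Myc and 0.322 for Fos over all 20 alternatives.

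**Figure D2:**
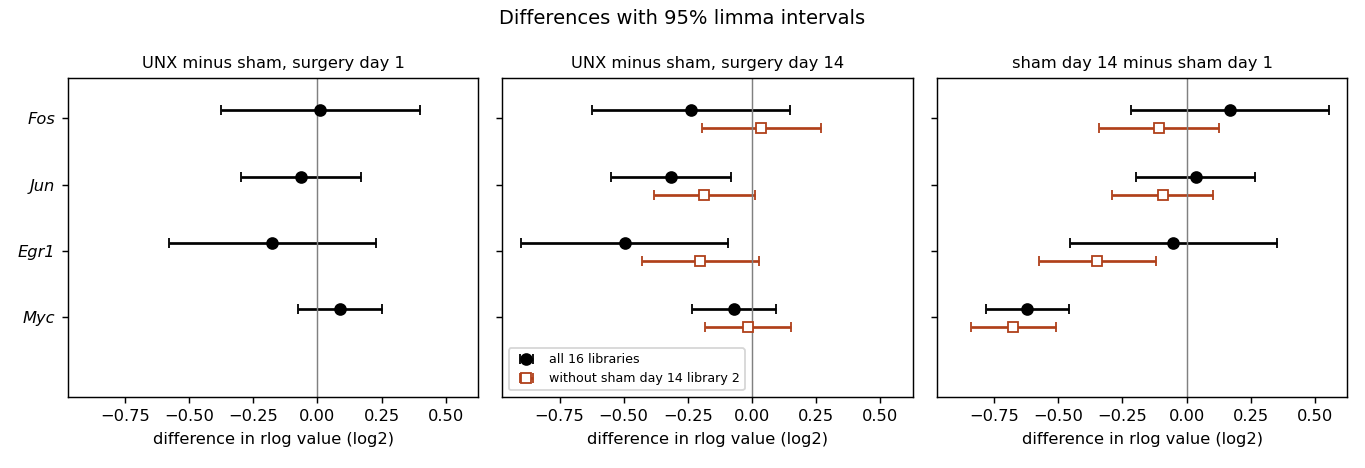
Differences in rlog value (x axis, log2) of the 4 genes (y axis) with 95% limma intervals, for UNX minus sham at each surgery day and for sham day 14 against sham day 1; filled points use all 16 libraries and open squares leave out sham day 14 library 2. At day 14 the difference of Egr1 moves from −0.50 to −0.20 and that of Fos from −0.24 to 0.036 when that library is left out, while the age difference of Myc moves from −0.62 to −0.67.

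**Figure D3:**
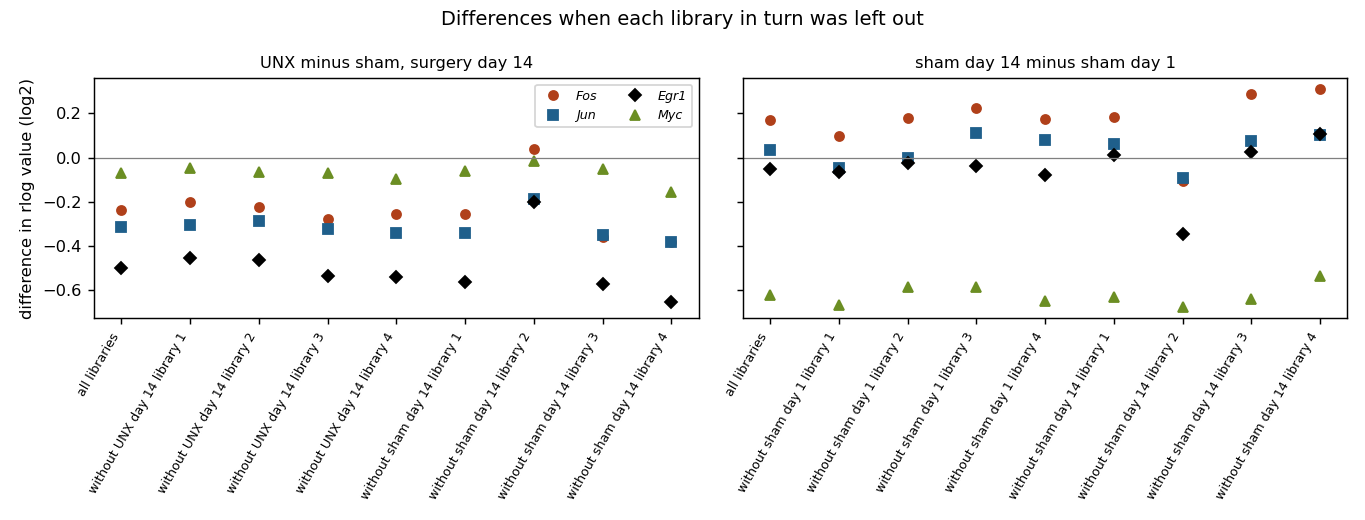
Difference in rlog value (y axis, log2) of Fos, Jun, Egr1 and Myc with all libraries and with each of the 8 compared libraries left out in turn (x axis), for UNX against sham at day 14 and for sham day 14 against sham day 1. Leaving out sham day 14 library 2 gives −0.20 for Egr1 and 0.036 for Fos in the first comparison, and −0.35 for Egr1 in the second.

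Averaged over both surgery days, UNX minus sham was −0.34 for Egr1 (95% interval −0.62 to −0.051; limma adjusted p = 0.399) and −0.19 for Jun (95% interval −0.35 to −0.024; limma adjusted p = 0.414). Fos differed by −0.11 (limma adjusted p = 0.801) and Myc by 0.0092 (limma adjusted p = 0.969). None of the 4 passed in limma, where 0.00674% of all tested genes did, and 2 of the 4, Egr1 and Jun, had an unadjusted p under 0.05, beside 10.6% of all tested genes. Without sham day 14 library 2 the averaged difference was −0.19 for Egr1 (95% interval −0.34 to −0.034; limma unadjusted p = 0.0198, adjusted p = 0.351), −0.12 for Jun (95% interval −0.26 to 0.010; limma unadjusted p = 0.0676, adjusted p = 0.484) and 0.024 for Fos. The number of the 4 with an unadjusted p under 0.05 was then 1, Egr1.

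The effect of UNX on day 14 minus that on day 1 was negative for all 4 genes, beside 48.8% of all tested genes. It was −0.32 for Egr1 (95% interval −0.89 to 0.25; limma adjusted p = 0.698), −0.25 for Jun (95% interval −0.58 to 0.079; limma adjusted p = 0.588) and −0.25 for Fos (95% interval −0.80 to 0.30; limma adjusted p = 0.763). Myc stood at −0.16 (95% interval −0.39 to 0.072; limma adjusted p = 0.622). None of the 4 passed in limma, in a comparison in which 0% of all tested genes passed, and none had an unadjusted p under 0.05, as 10.7% of all tested genes did. A difference between the ages in the response to UNX was therefore not shown for any of the 4. Without sham day 14 library 2 the values were −0.026 for Egr1, −0.12 for Jun, 0.025 for Fos and −0.10 for Myc.

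Ordered by group mean, Fos ran from sham day 14 (6.19) through UNX day 1 (6.04) and sham day 1 (6.03) to UNX day 14 (5.96). Jun ran from sham day 14 (9.45) through sham day 1 (9.41) and UNX day 1 (9.35) to UNX day 14 (9.14). Egr1 had sham day 1 (10.90) first, then sham day 14 (10.85), UNX day 1 (10.72) and UNX day 14 (10.35). Myc had UNX day 1 (10.06) first, then sham day 1 (9.98), sham day 14 (9.36) and UNX day 14 (9.29). UNX day 14 was thus lowest for each of the 4 with all libraries in. Without library 2 the sham day 14 means were 5.92 for Fos, 9.32 for Jun, 10.55 for Egr1 and 9.30 for Myc. Sham day 14 then moved from the highest to the lowest group for Fos, and from the highest to the group next above UNX day 14 for Jun. Of the neighbours in these orders, only sham day 1 and sham day 14 for Myc, and UNX day 1 and UNX day 14 for Jun, had values that did not overlap. Of these only the step of Myc passed the test in the fit of all 16 libraries. Such separation was common, at 36.7% of all tested genes between the sham ages and 45.7% between the UNX ages.

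In sham day 14 library 2, Egr1 stood 1.18 above the mean of the other 3 sham day 14 libraries (10.55), a level 2.27-fold higher. Fos stood 1.10 above their mean (5.92), or 2.15-fold higher, and Jun 0.52 above (9.32), or 1.43-fold higher. Among the 14845 tested genes, Egr1 ranked 1, Fos 2 and Jun 14 by this excess. Only 2 genes were at least 1 above the other 3 libraries, and they were Egr1 and Fos, while 15 genes were at least 0.5 above. Myc stood 0.22 above (1.16-fold) and ranked 508. These ranks describe 1 library that was singled out after its values were seen.

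Over all tested genes the same library was close to the rest of its group. The median excess over all tested genes was 0.0030 and its median size 0.069. It held the highest of the 16 values in 542 genes (3.65%), where an even share would be 6.25%, and other libraries held it in 393 to 1625 genes. Its mean Pearson correlation across genes with the other sham day 14 libraries was 0.9975, and theirs ran from 0.9965 to 0.9973. On the first 2 principal components it stood at 16.2 and 0.14, above sham day 14 libraries 1 and 3 (14.8 and 15.8, and −1.72 and −3.26) and below library 4 (24.5 and 12.9).

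Over all 16 libraries, the highest value of Fos exceeded the next, in UNX day 1 library 4, by 0.79 (1.73-fold). That lead was the 13th largest among the tested genes. The lead of Egr1 over the next value, in sham day 1 library 2, was 0.76 (1.69-fold) and ranked 16. Jun led by 0.19 over sham day 1 library 3, with a rank of 677. For Myc the highest value was in UNX day 1 library 4, with a lead of 0.12 and a rank of 1798.

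Spread between libraries of 1 group, pooled over the groups, was large for Fos, Jun and Egr1, but not in every group. The SD of Egr1 ran from 0.075 in sham day 1 to 0.60 in sham day 14. That of Fos ran from 0.10 in UNX day 14 to 0.58 in sham day 14, and that of Jun from 0.073 to 0.26 in the same 2 groups. The within-group SD, pooled over the 4 groups, was 0.34 for Egr1, 0.32 for Fos, 0.19 for Jun and 0.125 for Myc, where the median over all tested genes was 0.090. Egr1 exceeded 99.6% of the tested genes in spread, Fos 99.4%, Jun 96.0% and Myc 80.6%. Without sham day 14 library 2 the SD of Egr1 was 0.17 and that of Fos 0.16, above 94.3% and 92.7% of the tested genes. Jun then stood at 0.14 (88.2%) and Myc at 0.118 (75.7%). With sham day 1 library 3 and sham day 14 library 4 left out instead, Myc stood at 0.093 (58.1%), close to the median of all tested genes. Leaving out sham day 14 library 2 thus brought the spread of Egr1 and Fos to about the size of that of Jun, and each of the 3 stayed above the median of all tested genes.

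Whether the 4 genes went up and down together between libraries was asked on each library's deviation from its group mean, so that age and surgery did not enter. Fos and Jun deviated together, with Pearson r = 0.86 over the 16 libraries (p = 9e-05, 0.00054 after Benjamini-Hochberg adjustment over the 6 pairs; libraries permuted within groups 100000 times, two-sided permutation test) and Spearman rho = 0.84 (permutation p = 0.00028, adjusted 0.00168). The relation was r = 0.83 within day 1 surgery (two-sided exact permutation p = 0.00521, adjusted 0.0312, n = 8) and r = 0.96 within day 14 surgery (exact permutation p = 0.0104, adjusted 0.0208, n = 8). The ranks gave rho = 0.79 within day 1 surgery (exact permutation p = 0.0226, adjusted 0.135) and 0.90 within day 14 surgery (exact permutation p = 0.0156, adjusted 0.0312). Without sham day 14 library 2, r was 0.74 over 15 libraries (permutation p = 0.00062, adjusted 0.00372), and without the 2 libraries farthest in Fos, sham day 14 libraries 2 and 4, it was also 0.74 (permutation p = 0.00102, adjusted 0.00612). Within the 7 remaining day 14 libraries r was 0.67 and did not pass (exact permutation p = 0.118, adjusted 0.142). All libraries share the 1 scaling of the deposited table, and centring each on its median left r at 0.86.

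Fos and Egr1 had the same r of 0.86 but did not pass (two-sided permutation p = 0.0244, adjusted 0.0731), with rho = 0.60 (permutation p = 0.0487, adjusted 0.0975). This relation rested on the libraries at the ends: without the 2 farthest in Fos, r was 0.34 (permutation p = 0.322, adjusted 0.483). It was 0.24 within day 1 surgery (exact permutation p = 0.493, adjusted 0.740) and 0.98 within day 14 surgery (exact permutation p = 0.00347, adjusted 0.0208), where it was 0.76 without sham library 2 (exact permutation p = 0.0694, adjusted 0.104). In UNX day 1 libraries, Egr1 was highest in libraries 2 and 3 while Fos was highest in libraries 2 and 4.

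Jun and Egr1 passed within day 14 surgery and not within day 1 surgery, and the difference between the ages was not tested. Their r was 0.63 over 16 libraries (permutation p = 0.111, adjusted 0.133; rho = 0.41, permutation p = 0.131, adjusted 0.158) and 0.030 without the 2 farthest libraries in Jun, sham day 1 library 3 and sham day 14 library 2 (permutation p = 0.960). It was −0.12 within day 1 surgery (exact permutation p = 0.856, adjusted 0.872) and 0.99 within day 14 surgery (exact permutation p = 0.00694, adjusted 0.0208). Without sham library 2 the day 14 value was 0.91 (exact permutation p = 0.0278, adjusted 0.0833).

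Myc did not pass with any of the other 3 genes. Over 16 libraries r was 0.67 with Jun (permutation p = 0.0437, adjusted 0.0874; rho = 0.55, permutation p = 0.0820, adjusted 0.123). It was 0.64 with Fos (permutation p = 0.0864, adjusted 0.130; rho = 0.66, permutation p = 0.0212, adjusted 0.0635) and 0.50 with Egr1 (permutation p = 0.233, adjusted 0.233; rho = 0.28, permutation p = 0.337, adjusted 0.337). Without the 2 farthest libraries these values were 0.49, 0.52 and 0.052, with adjusted permutation p of 0.232, 0.232 and 0.960. Within day 1 surgery they were 0.58, 0.61 and −0.096, and within day 14 surgery 0.74, 0.70 and 0.76, with adjusted exact permutation p from 0.271 to 0.872.

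**Figure D4:**
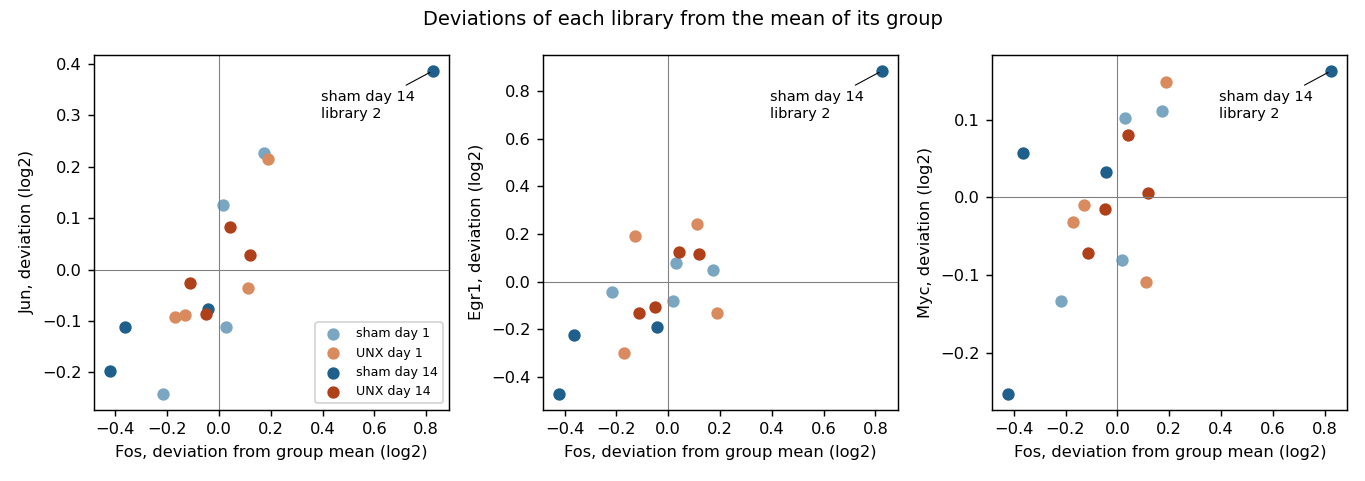
Deviation of each library from its group mean (log2) for Jun, Egr1 and Myc (y axes) against Fos (x axis), 16 libraries coloured by group. Sham day 14 library 2 lies at 0.83 for Fos, 0.39 for Jun, 0.89 for Egr1 and 0.16 for Myc; with it left out, r with Fos is 0.74 for Jun, 0.42 for Egr1 and 0.59 for Myc.

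Among all tested genes, Jun and Egr1 were close to the most like Fos in pattern. By Pearson correlation of levels over the 16 libraries, given as a description, ENSRNOG00000007607 was the most like Fos (r = 0.84), followed by Jun in position 2 (0.80) and Egr1 in position 3 (0.78). ENSRNOG00000007607 was also the most like Jun (0.86), for which Fos was in position 6 and Egr1 in position 11. Egr1 had Fos as its most alike gene (0.78) and Jun in position 2 (0.75). Myc had ENSRNOG00000003195 as its most alike gene (0.98), a value to which the age difference contributes, and Egr1, the nearest of the other 3, was in position 5060 (0.41).

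With group means taken out, the most alike genes were ENSRNOG00000007131 for Fos (0.91), ENSRNOG00000020744 for Jun (0.91), ENSRNOG00000018804 for Egr1 (0.89) and ENSRNOG00000025843 for Myc (0.90). Jun and Egr1 were then not close to each other, with Egr1 in position 219 for Jun and Jun in position 141 for Egr1. Myc was in position 108 for Fos. Closer in the lists, Jun was in position 2 and Egr1 in position 3 for Fos, Fos was in position 3 for Jun, and Fos was in position 2 for Egr1. Without sham day 14 library 2 these positions were 47 for Jun and 1190 for Egr1 in the list of Fos, 88 for Fos in that of Jun and 1176 for Fos in that of Egr1. The nearness of Egr1 to Fos among all tested genes was thus present only with that library included, and Jun moved less far down the list of Fos than Egr1 did.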

How the data were processed

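RNA sequencing of total RNA from 16 rat kidney samples was analysed from the table the authors deposited. The deposited values are log2-scale rlog levels, judged by the file's name and the range of the numbers. Per the submitters' processing notes the tools were STAR 2.4.0, BWA 0.7.14, featureCounts, Subread 1.5.1 and DESeq2, with no role or order. Not given in the sources used here are the genome build, the annotation, the strand setting and whether the transform knew the groups. Reads shared with overlapping genes can therefore not be set apart. Groups and library numbers came from sample titles, and sham libraries were read from the columns headed CO.

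Of 26689 rows, 22715 varied and the 14845 with a mean of at least 3 were tested with limma 3.58.1 in R 4.3.3. The fit had 1 mean per group over all 16 libraries (12 residual and 6.88 prior degrees of freedom), a mean-variance trend, and two-sided p-values adjusted by Benjamini-Hochberg over all tested genes. Genes passed at adjusted p under 0.05. Intervals are 95% limma intervals. Correlations used permutations within groups in Python 3.11.15 with numpy 2.4.6 and pandas 2.3.3, and plots matplotlib 3.10.9.

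The members and lists were chosen with earlier results of these data known. Genes named beside the 4 were, for each, the 1 with the highest correlation of levels and the 1 with the highest correlation of deviations. Lists of related genes and of cell type markers could not be matched to the identifiers. Alternatives changed the filter, scaling, variance model, threshold, library number as a block, and libraries. Those without sham day 14 library 2 for spread and correlations were chosen after seeing the data.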

Additional observations from a re-analysis of the deposited data

How the results depend on the processing

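Over 131 recomputed counts of the 4 genes past the threshold, 129 were the same. The number past it between sham day 14 and sham day 1 ran from 1 to 2 when 1 library was left out, with 2 (Myc and Egr1) without sham day 14 library 2. Between UNX day 14 and UNX day 1 it was 3 with only the groups compared in the fit, in which 49.7% of all tested genes passed. Myc kept its fall with age and its call in all 19 alternatives in sham kidneys (−0.67 to −0.50) and in all 19 in UNX kidneys (−0.81 to −0.73).

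Of 524 recomputed differences of single genes, 23 changed sign, all of values that did not pass. Leaving out 1 library moved Fos from −0.061 to 0.069 for UNX on day 1, from −0.38 to 0.0365 for UNX on day 14, from −0.18 to 0.024 for the average, from −0.39 to 0.025 for the difference between the effects and from −0.11 to 0.31 between the sham groups. In the same way Jun ran from −0.14 to 0.012 for UNX on day 1 and from −0.094 to 0.11 between the sham groups, Egr1 from −0.35 to 0.11 between the sham groups, and Myc from −0.033 to 0.036 for the average. With sham day 1 library 3 and sham day 14 library 4 left out together, Jun was 0.0121 for UNX on day 1, Myc −0.0143 for the average and Egr1 0.121 between the sham groups, which was 0.092 with array weights. Apart from the libraries left out, the cause was not tested.

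The correlation of Fos and Jun was 0.669 within day 14 surgery without sham library 2 and did not pass there. Fos and Egr1 (0.975) and Jun and Egr1 (0.991) passed within day 14 surgery alone. Within day 1 surgery Jun and Egr1 (−0.115) and Egr1 and Myc (−0.0959) had the opposite sign.

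With the library number as a replicate block, the counts of the 4 genes past the threshold stayed at 0 in the 4 comparisons that involve UNX against sham and at 1 in both age comparisons. For UNX on day 14 the limma adjusted p was 0.224 for Egr1 and 0.243 for Jun with the block, at the unblocked differences of −0.4967 and −0.3142. Same-numbered libraries correlated at −0.020 to 0.12 at day 1 and −0.23 to 0.038 at day 14, and 5 of 8 and 0 of 8 correlated best with their own number. The 5 of 8 at day 1 is a hint from the data only. Since not every pair exceeded 0.1 and the labels name no shared litter or day, the numbers were not taken as pairs.

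Counts over all genes for UNX were unstable: 1 at day 1 ran from 0 to 9, 8 at day 14 from 0 to 90, 1 for the average from 0 to 10 and 0 for the difference from 0 to 5. The 6696 of the sham age comparison became 1234, and the 6821 of the UNX age comparison 1292, once a minimum size of 0.5 was asked for as well. Unknown depth limits the precision that can be stated.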

Other observations

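A screen for samples far from the rest, with Dixon's ratio in the 16 combinations of gene and group, passed 0 of 16 at the 95% critical value for 4 samples. The largest ratio was 0.815, for Jun in UNX day 1 library 4 (9.56, where the other 3 stood at 9.26 to 9.32). Sham day 14 library 2 had ratios of 0.793 for Egr1, 0.794 for Jun and 0.697 for Fos, so a library that was the highest of 16 in these 3 genes did not pass in any of them taken singly.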
